A study of Mus musculus with 4 samples.

Results

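The genes described here are 10 that are known to be raised in injured or regenerating liver tissue. They are the galectins Lgals1 and Lgals3, the annexins Anxa1, Anxa2 and Anxa5, the S100 proteins S100a10 and S100a6, the keratins Krt8 and Krt18, and vimentin (Vim). They were selected on their annotation and on earlier knowledge of the null against control contrast of these same arrays, in which several of them were called. Their differences between the genotypes are therefore given as a description, with no p-value, and how many of them the fit called is stated with nothing read from it. All 10 genes are on the array, on 14 of the 12422 probe sets, out of 8251 genes with a probe set of their own.

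Liver of hepatic reductase null mice (replicates 7 and 8) was set against liver of control mice (replicates 7 and 8), with 1 array for each replicate. The labels give no allele, strain, sex or age. In the line known by that name, the gene of NADPH-cytochrome P450 oxidoreductase (Por), the electron donor of the microsomal P450 enzymes, is deleted in hepatocytes by a Cre recombinase under the albumin promoter, so the other cells of the liver keep the gene. No probe set of the annotation names Por, and its level was not analysed here. The labels speak of RNA of 3 animals per genotype pooled for each of 2 experiments, whereas the control titles speak of a mouse, so an array may hold a pool or an animal, and nothing says that the replicates differ in more than the RNA used. The array medians were 27.2 and 28.4 in null liver and 26.1 and 26.7 in control liver. Pearson's r of the linear signals over probe sets was 0.992 for the null pair, 0.996 for the control pair and 0.972 to 0.983 between genotypes. On null replicate 7 the summed signal of 8 pancreatic acinar genes was 3028, against 303 on null replicate 8 and 257 and 368 on the control arrays, so each list median printed below is also given without that array, and the members are given as ranges with each array left out. As a check of the labelled liver, albumin (Alb), the main secreted protein of hepatocytes, had signals of 9809.2 and 9108.7 in null liver and 8991.0 and 9729.0 in control liver. Of 13 hepatocyte markers tested, 8 had both null signals below both control signals, as had 1694 of all 7241 tested probe sets. In RNA of whole tissue, more cells of a type and more RNA per cell cannot be told apart.

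Galectins are lectins that bind galactose-containing sugars on cell surfaces and in the matrix. Annexins bind acidic phospholipids at membranes when calcium rises, and S100 proteins are small calcium sensors, some of which dock onto an annexin. Keratins 8 and 18, a type II and a type I chain that form filaments only together, are the cytoplasmic intermediate filaments of the hepatocyte, while bile duct cells add keratins 7 and 19 and mesenchymal cells use vimentin instead. In liver, galectin 3 and vimentin are known mainly from macrophages, stellate cells and other cells that are not hepatocytes, and the keratin pair is known for rising, and for forming inclusions, in chronic hepatocyte injury.

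Signals were floored at 7.1 before the log2 transform, and a log2 difference below is the null mean minus the control mean, with the standard error (SE) of a limma fit over 7241 probe sets. Of the 10 genes 9 had a tested probe set, and Vim was too dim. The mean of the control arrays alone would have carried the same number, 9, over the filter. In that fit Lgals1, Anxa5, S100a10 and Krt8, 4 of the 9, passed an adjusted p of 0.05 as higher in null liver, where 0.304% of all tested probe sets were called higher and 0.0829% lower. All 9 had both null signals above both control signals, as had 20.4% of all tested probe sets. Because the contrast chose the genes, nothing is read from these counts. At an unadjusted p under 0.05, 446 of the 7241 tested probe sets were higher and 468 were lower, and counts of this kind below are to be set against these. Over the 9 genes the median log2 difference was 0.96, with a range of 0.70 to 2.04, and the median over all tested probe sets was -0.01. Without null replicate 7 the median of the 9 was 1.14.

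**Figure D1:**
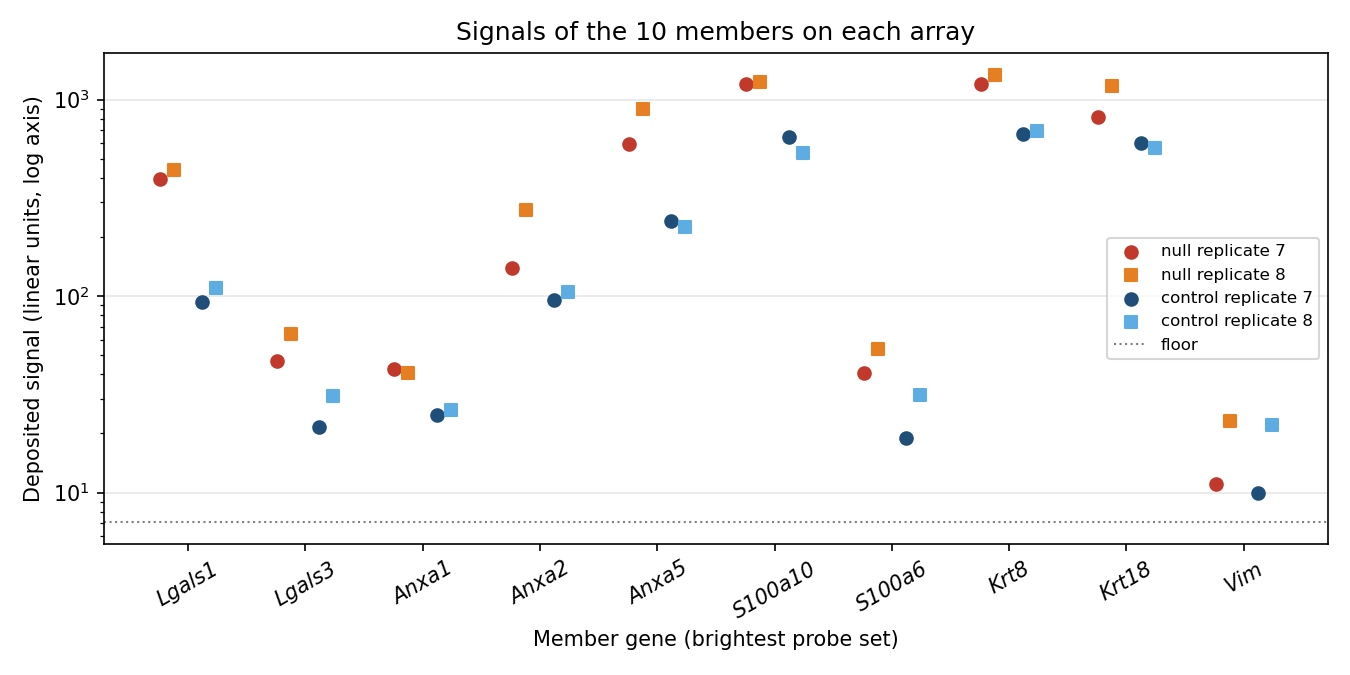
Deposited signal (linear units on a log axis) of the brightest probe set of each of the 10 genes on the 2 null arrays (red and orange) and the 2 control arrays (dark and light blue), with the floor of 7.1 as a dotted line. The null points lie above the control points for every gene except Vim, whose replicate 8 arrays lie above its replicate 7 arrays in both genotypes.

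Of the galectins, Lgals1 had the largest difference of the set. Lgals1 (chr15:78926725-78930465, GRCm38.p6, as are all positions here) encodes galectin 1, a small secreted lectin best known for dampening T cell responses. Its signal was 396.0 and 439.6 in null liver, against 93.5 and 109.6 in control liver. The arrays of a genotype lay close together, and the lower null signal was 3.61 times the higher control signal. The log2 difference was 2.04 ± 0.15 (SE), a 4.12-fold difference, which ranks at the 99.7th percentile of all tested probe sets. Lgals3 (chr14:47373860-47386167) encodes galectin 3, also named Mac-2 as a macrophage antigen. This dimmer probe set gave 46.8 and 64.0 in null liver and 21.6 and 31.1 in control liver, a log2 difference of 1.08 ± 0.32 (SE). Its groups did not overlap, but replicate 8 was above replicate 7 in both genotypes by a similar step, 0.45 in null liver and 0.53 in control liver on the log2 scale.

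The annexins differed from each other in size and in how well their null arrays agreed. Anxa5 (chr3:36448923-36475887), annexin A5, which binds phosphatidylserine and is the usual probe for dying cells, had signals of 596.4 and 897.1 in null liver and of 242.1 and 224.0 in control liver. The control arrays nearly coincided while null replicate 8 was 1.5 times null replicate 7, and the log2 difference was 1.65 ± 0.20 (SE, 3.14-fold). Anxa2 (chr9:69453683-69491792), annexin A2, gathers plasminogen and its activator at the cell surface. It gave 138.6 and 272.9 in null liver, against 95.6 and 104.7 in control liver. The control pair was again tight, but null replicate 8 was 1.97 times null replicate 7, so the log2 difference of 0.96 ± 0.31 (SE) stands between 0.47 without null replicate 8 and 1.45 without null replicate 7. Anxa1 (chr19:20373434-20390671), annexin A1 or lipocortin, acts on formyl peptide receptors to damp inflammation. Its brightest probe set lay at 42.6 and 40.5 in null liver and at 24.9 and 26.2 in control liver. These signals are low and close within each genotype, with a log2 difference of 0.70 ± 0.28 (SE). A second tested probe set of Anxa1 had 21.8 and 17.5 in null liver and 18.7 and 16.3 in control liver, so its groups overlapped (log2 difference 0.16 ± 0.46, SE). The third, with signals of 8.5 and 5.3 in null liver and 1.2 and 3.5 in control liver, was too dim to test. Both tested Anxa1 probe sets carry the suffix _f_at, which marks probes that may also bind related transcripts.

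The 250 bases upstream of the transcription start of Anxa2 (GRCm38.p6, chr9:69453433-69453682, plus strand) are shown because they alone among the 8 genes with a RefSeq promoter window hold the letters of an AP-1 site (TGANTCA). Those of Anxa5 (chr3:36475888-36476137, minus strand), the gene of largest difference among the 8, are set beside them. Both are written 5′ to 3′ in the direction of the gene, with the AP-1 letters and the letters TATAAA in capitals.

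Anxa2 upstream: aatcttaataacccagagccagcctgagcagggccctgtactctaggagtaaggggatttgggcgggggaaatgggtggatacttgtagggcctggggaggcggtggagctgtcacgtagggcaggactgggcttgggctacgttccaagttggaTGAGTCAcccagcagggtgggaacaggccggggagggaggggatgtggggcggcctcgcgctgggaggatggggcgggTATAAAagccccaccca

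Anxa5 upstream: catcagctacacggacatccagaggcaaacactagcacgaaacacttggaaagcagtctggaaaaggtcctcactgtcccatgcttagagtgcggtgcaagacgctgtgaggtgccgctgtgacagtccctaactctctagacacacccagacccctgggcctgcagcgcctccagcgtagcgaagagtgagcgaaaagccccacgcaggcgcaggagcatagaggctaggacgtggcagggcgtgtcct

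In the Anxa2 window the AP-1 letters begin 95 bases before the start and the TATA letters 17 bases before it, and 3 copies of GGGCGG, a GC box, lie on the same strand. The Anxa5 window holds none of the 5 motifs searched on both strands, which were the AP-1 site, the GC box, the TATA box (TATAAA), the TEAD site (GGAATG) and the CCAAT box, whose letters are its name. Over 32851 windows of the same length, 6.75% hold the AP-1 site, 12.6% the TEAD site, 32.7% the GC box, 12.4% the TATA box and 33.9% the CCAAT box. Of the 8 windows, 1 holds the AP-1 site (Anxa2), 1 the TEAD site (Anxa1), 2 the GC box (Lgals3 and Anxa2), 3 the TATA box (Anxa1, Anxa2 and Vim) and 3 the CCAAT box (Lgals3, S100a6 and Vim). None of the 5 occurs in all 8 windows. A match describes the letters of a window and not a bound site, and no match says only that the letters are not in it.

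S100a10 (chr3:93555117-93564645), also called p11, is the S100 protein that binds Anxa2 and joins it into a membrane complex. Its signal was 1199.0 and 1234.9 in null liver, against 647.2 and 532.2 in control liver. The null arrays differed by a factor of 1.03, the closest null pair of the set, and the lower of them was 1.85 times the higher control signal. The log2 difference was 1.05 ± 0.12 (SE, 2.07-fold), close to the 0.96 of its partner Anxa2, whose null arrays lay far apart. Another S100a10 probe set was dim and mixed, with 14.8 and 21.4 in null liver and 8.3 and 20.4 in control liver. S100a6 (chr3:90612894-90614414), or calcyclin, is a calcium sensor of proliferating and mesenchymal cells. It had 40.8 and 53.7 in null liver and 18.9 and 31.3 in control liver, with a log2 difference of 0.94 ± 0.35 (SE) and, as for Lgals3, the replicate 8 array higher in each genotype.

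Both keratin partners had all null signals above all control signals, as had 20.4% of all tested probe sets. Krt8 had signals of 1205.8 and 1330.0 in null liver and of 672.2 and 695.4 in control liver. Its 2 groups are tight and well apart, and the log2 difference of 0.89 ± 0.10 (SE, 1.85-fold) has the smallest standard error of the set. Krt18 had 811.5 and 1173.8 in null liver, against 603.7 and 564.1 in control liver. Null replicate 8 of Krt18 was 1.45 times null replicate 7, and the log2 difference was 0.74 ± 0.17 (SE, 1.67-fold). A second probe set of Krt18 lay at 6.4 and 8.6 in null liver and at 0.4 and 0.3 in control liver, where 1 of the 4 signals was above the floor, and no fold is given. The genes lie back to back on chromosome 15, Krt8 on the minus strand at 101996711 to 102004342 and Krt18 on the plus strand at 102028216 to 102032026, with 23873 bases between them and no other annotated protein-coding gene there. Their upstream windows (GRCm38.p6, chr15:102004343-102004592, minus strand, for Krt8 and chr15:102027966-102028215, plus strand, for Krt18) are shown because the encoded chains pair in the hepatocyte and the genes stand next to each other. They are written 5′ to 3′ in the direction of each gene, all in lower case since none of the 5 motifs occurs in either.

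Krt8 upstream: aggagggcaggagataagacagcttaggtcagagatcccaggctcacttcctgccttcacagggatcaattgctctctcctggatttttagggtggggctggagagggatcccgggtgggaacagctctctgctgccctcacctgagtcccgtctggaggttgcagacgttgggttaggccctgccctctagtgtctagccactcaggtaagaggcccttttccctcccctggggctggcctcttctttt

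Krt18 upstream: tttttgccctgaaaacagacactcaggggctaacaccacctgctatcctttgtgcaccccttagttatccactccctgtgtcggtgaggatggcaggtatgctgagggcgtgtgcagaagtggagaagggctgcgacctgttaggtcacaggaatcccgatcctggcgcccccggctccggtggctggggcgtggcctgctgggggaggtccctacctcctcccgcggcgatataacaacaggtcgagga

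The share of G and C was 58.0% in the Krt8 window and 60.4% in the Krt18 window, against a median of 52.4% over all windows.

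Vim (chr2:13574311-13582826), the intermediate filament of mesenchymal cells and macrophages, was too dim to be tested. Its single probe set gave 11 and 23 in null liver and 10 and 22.2 in control liver. Replicate 8 was 2.09 times replicate 7 in null liver and 2.22 times in control liver, while the genotype means were 17.0 ± 8.49 in null liver and 16.1 ± 8.63 in control liver (SD, n = 2 each). The signal was under the filter, and the log2 difference of 0.09 turned to -0.44 without null replicate 8 and to -0.48 without control replicate 7.

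Within a genotype the higher array was mostly replicate 8. It was above replicate 7 for 9 of the 10 genes in null liver, for 7 of 10 in control liver, and for 6 of 10 in both. Over all tested probe sets replicate 8 was higher for 52.9% in null liver, for 51.9% in control liver and for 26.4% in both. The null gap was widest for Vim (1.06 on the log2 scale) and Anxa2 (0.98), followed by Anxa5 (0.59), Krt18 (0.53), Lgals3 (0.45) and S100a6 (0.40), and it was 0.15 or less in size for Lgals1, Krt8, Anxa1 and S100a10. For Anxa2, Anxa5 and Krt18 the control gap stayed at 0.13 or less in size. Null replicate 7, the lower null array for 9 of the genes, is the one with raised pancreatic genes, and the part of that RNA in the gap was not tested.

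**Figure D2:**
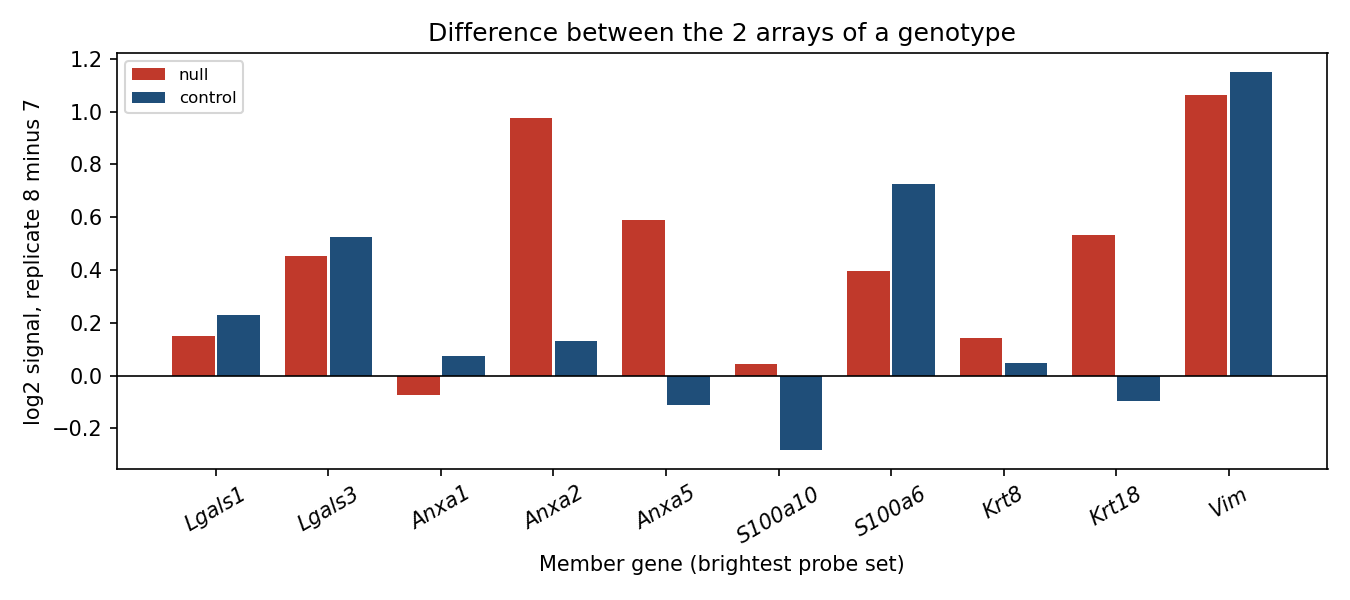
Difference in log2 signal between replicate 8 and replicate 7 of null liver (red bars, left) and of control liver (blue bars, right) for the brightest probe set of each gene. Bars of Anxa2, Anxa5 and Krt18 are long in null liver only, those of Lgals3, S100a6 and Vim are long in both genotypes, and those of Lgals1, Anxa1 and Krt8 are short.

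Each array was left out in turn to see how far the differences rest on it. Lgals1 stayed between 1.93 and 2.16 on the log2 scale and Krt8 between 0.82 and 0.96, so no array moved them by much. Anxa5 lay between 1.36 and 1.95, S100a10 between 0.91 and 1.19 and Anxa1 between 0.66 and 0.74. Krt18 varied from 0.48 without null replicate 8 to 1.01 without null replicate 7. Lgals3 varied from 0.82 to 1.34 and S100a6 from 0.58 to 1.31, in both cases with the lowest value without control replicate 7 and the highest without control replicate 8. Each of the 4 calls was lost with at least 1 of the arrays left out, in fits that leave 1 array in a genotype.

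**Figure D3:**
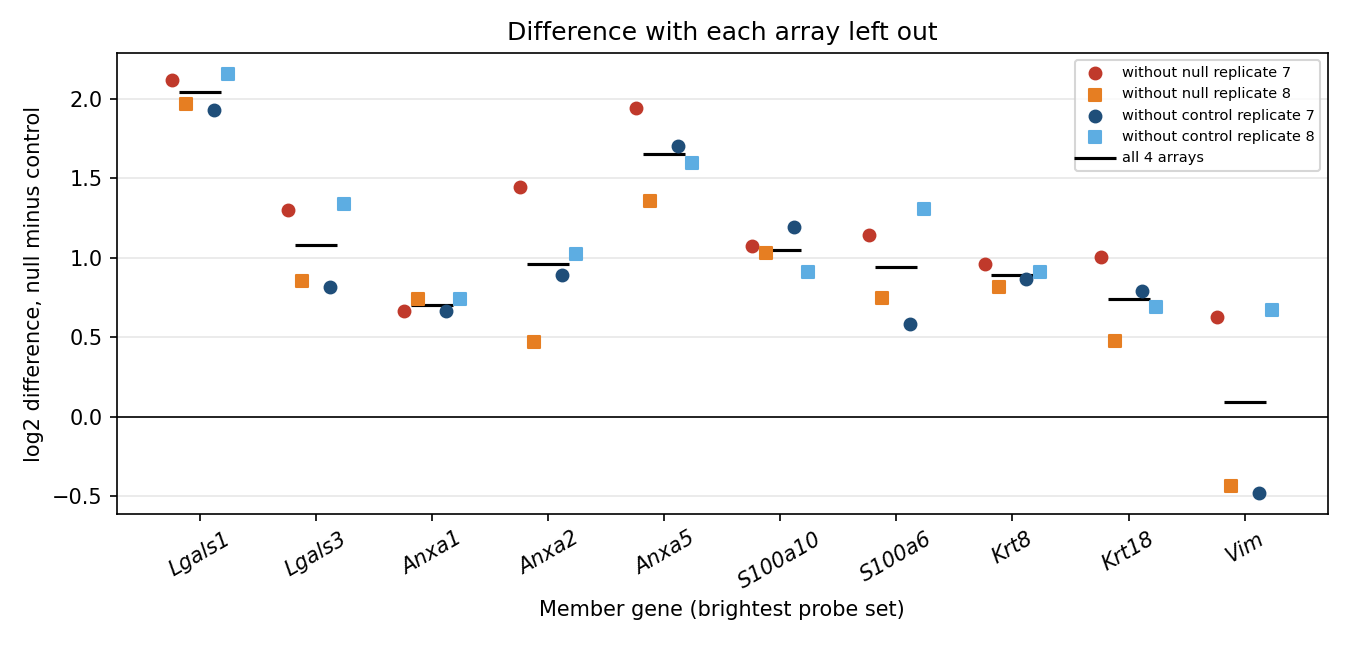
Log2 difference, null minus control, of each gene with all 4 arrays (black bar) and with 1 array left out (points, coloured by the array removed). Lgals1 and Krt8 hardly move, Anxa2 runs from 0.47 to 1.45, and Vim lies on both sides of 0.

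The other tested genes listed with these protein families showed no call. Over all tested probe sets 0.304% were called higher and 0.0829% lower, so nothing is read from the absence of calls in a list this short. The list of 63 relatives also counts Lgals3bp and S100pbp, which are named as binding proteins and not as family members. Of the 63, 52 were on the array and 26 were tested. Of these, 0 rose and 0 fell in limma, with 0 higher and 1 lower at an unadjusted p under 0.05. Their median log2 difference was 0.063, or 0.027 without null replicate 7, with 14 positive and 12 negative values. Both null signals lay above both control signals for 5 of the 26, and for 20.4% of all tested probe sets. The list leaves out the members, which were known to be high, and nothing particular to the members is read from the contrast. Among the galectins, Lgals8, a tandem-repeat galectin, had 39.7 and 74.6 in null liver and 37.5 and 21.0 in control liver (0.96 ± 0.42, log2, SE; adjusted p = 0.418). Lgals9, a bright galectin with the signals 2090.9 and 2124.1 in null liver and 2080.7 and 2300.2 in control liver, was at -0.05 ± 0.08 (adjusted p = 0.832). Their difference thus lay near that of Lgals3 for Lgals8, with a wide error, and near 0 for Lgals9. Without null replicate 7 the difference of Lgals8 was 1.41. Lgals4, of gut epithelium, was at -0.28 ± 0.24 (-0.061 without null replicate 7) and Lgals2 at 0.52 ± 0.43, the galectin-like gene Lgalsl was at 0.84 ± 0.38, and Lgals3bp, the secreted galectin 3 binding protein, was at 0.10 ± 0.19.

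Of 4 tested annexins besides the members, 0 passed in limma and 0 had an unadjusted p under 0.05. Anxa6, an annexin with a doubled core, had signals of 277.1 and 327.8 in null liver and of 315.9 and 225.3 in control liver, and Anxa4 had 184.8 and 195.8 in null liver and 190.6 and 210.5 in control liver. Both have overlapping groups, at 0.18 ± 0.19 for Anxa6 and -0.07 ± 0.14 for Anxa4 (log2, SE). Anxa7 was at 0.06 ± 0.22 and Anxa3, a dim probe set, at 0.07 ± 0.56. Among 5 tested genes of the S100 list besides the members, 1 was positive and 4 were negative. The 4 include S100pbp (-0.29 ± 0.30, log2, SE), which is named as an S100 binding protein. In limma the list had 0 calls and 1 gene lower at an unadjusted p under 0.05. That gene, S100a13, a partner of growth factor release, had 353.8 and 304.7 in null liver and 489.1 and 460.4 in control liver, opposite in direction to S100a10 and S100a6 (-0.53 ± 0.13, log2, SE; adjusted p = 0.163). S100a8, of neutrophils, was at 0.89 ± 0.43 (adjusted p = 0.457) on low signals, and S100a1 was at -0.24 ± 0.15. The mean of the control arrays alone would not have carried S100a8 over the filter.

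Of 11 tested intermediate filament genes besides the members, 0 passed in limma and 0 had an unadjusted p under 0.05. Krt4 was at 0.81 ± 0.38 (adjusted p = 0.449) with signals of 57.3 and 109.8 in null liver and 59.3 and 34.7 in control liver. Krt17, read by a probe set that was low on control replicate 8 alone, had 40.5 and 37.9 in null liver and 40.9 and 9.4 in control liver. The nuclear lamins Lmna (0.23 ± 0.17) and Lmnb2 (0.34 ± 0.27) and desmin (Des, 0.38 ± 0.51), the muscle and stellate cell filament, did not pass. The bile duct keratins were dim. Krt19 had 10.8 and 24.7 in null liver and 1.0 and 18.8 in control liver, and Krt7 had 8.4 and 18.3 in null liver and 5.8 and 15.2 in control liver, neither bright enough to test. Both were higher on replicate 8 of each genotype, as Vim was.

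**Figure D4:**
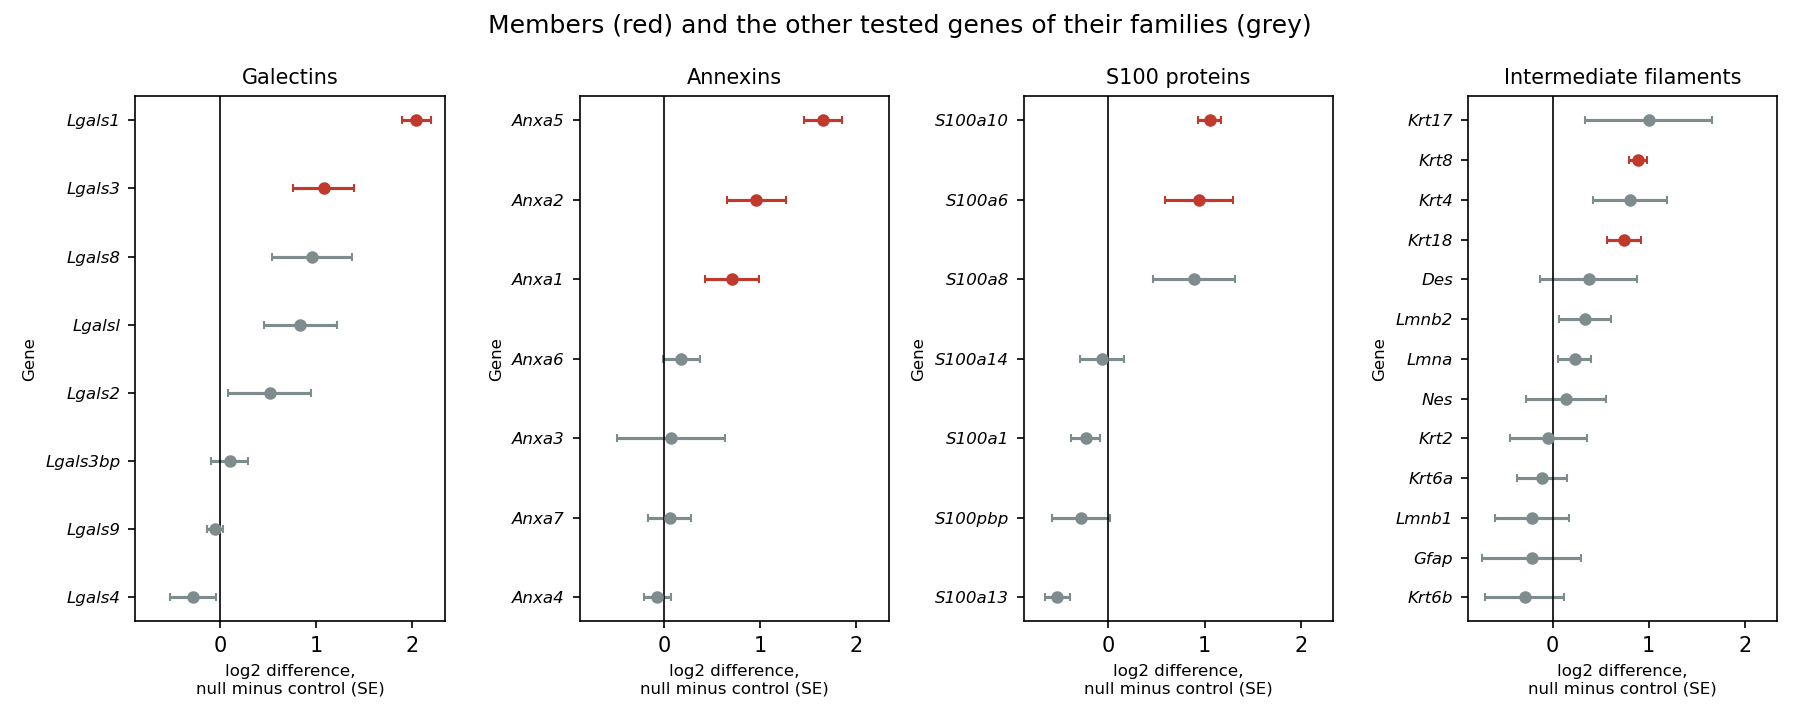
Log2 difference, null minus control, with its SE, of the tested members (red) and of the other tested genes listed with the 4 families (grey), each family sorted by size. The members lead the galectin, annexin and S100 panels, having been chosen with these values known, while Krt17 and Krt4 stand beside Krt8 and Krt18 with wider errors.

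Proteins known to bind the members were looked at as a list of 24, of which 14 were tested. In limma 0 passed, with 1 higher and 1 lower at an unadjusted p under 0.05, and the median log2 difference was -0.0038, or 0.067 without null replicate 7. Ahnak, a giant scaffold protein held at the membrane by the complex of Anxa2 and S100a10, had 77.0 and 86.0 in null liver and 40.7 and 49.0 in control liver. Its null arrays both lay above the control arrays, by a difference of 0.87 ± 0.21 (log2, SE; adjusted p = 0.166), a mean shift close to the 0.89 of Krt8. Desmoplakin (Dsp), which ties keratin filaments to desmosomes, had 162.5 and 160.4 in null liver, against 206.9 and 239.8 in control liver (-0.46 ± 0.15, log2, SE; adjusted p = 0.268). Plectin (Plec), a linker of intermediate filaments, was at -0.36 ± 0.30, and plasminogen (Plg), a ligand of the Anxa2 complex that hepatocytes secrete, at -0.15 ± 0.07 (adjusted p = 0.436).

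Among 36 tested genes of the actin and microtubule cytoskeleton, 0 passed in limma, with 7 higher and 1 lower at an unadjusted p under 0.05, where 446 of 7241 probe sets were higher and 468 lower. The median log2 difference was 0.27, or 0.32 without null replicate 7, with 25 positive and 11 negative values. Of the 36, 16 had both null signals above both control signals, as had 20.4% of all tested probe sets. Tubb2a, a beta tubulin read by an _f_at probe set, had 351.1 and 598.1 in null liver, against 182.7 and 153.3 in control liver (1.45 ± 0.25, log2, SE; adjusted p = 0.0803). As with Anxa2 and Anxa5, null replicate 8 of Tubb2a was far above null replicate 7. The actin-binding thymosins Tmsb10 and Tmsb4x were at 0.87 ± 0.17 (adjusted p = 0.0997) and 0.59 ± 0.13 (adjusted p = 0.131), Actg1, cytoplasmic actin, at 0.62 ± 0.15 (adjusted p = 0.166), and the tropomyosins Tpm1 and Tpm4 at 0.51 ± 0.15 and 0.44 ± 0.15.

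A list of 26 genes known from regenerating or injured liver gave 15 tested genes, 0 calls in limma, and 2 higher and 0 lower at an unadjusted p under 0.05. Its median log2 difference was 0.17, or 0.38 without null replicate 7, with 11 positive and 4 negative values. Il1rn, the interleukin 1 receptor antagonist, had 28.5 and 36.4 in null liver and 15.7 and 4.0 in control liver (1.61 ± 0.56, log2, SE; adjusted p = 0.305). It is 1 of the 2 higher genes, but its signal on control replicate 8 lay under the floor. On the mean of the control arrays alone Il1rn would not have passed the filter, so nothing is read from its p. The matricellular genes Ccn1 and Ccn2 were at 0.79 ± 0.45 (0.38 without null replicate 7) and 0.83 ± 0.49 on dim probe sets. Ly6d, a surface protein of squamous epithelium and B cell precursors, had 69.2 and 186.3 in null liver and 21.0 and 64.7 in control liver (1.62 ± 0.62, log2, SE; adjusted p = 0.346). Sprr1a, of the cornified envelope, was at 1.15 ± 0.64 and Socs3, an inhibitor of cytokine signalling, at -0.48 ± 0.30, and neither passed. Ccn2 and Sprr1a, like Il1rn, would not have passed the filter on the mean of the control arrays alone.

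Markers of the cells that could carry these transcripts moved in part with them. Of 22 macrophage and Kupffer cell markers 20 were on the array and 18 were tested, of which 2 rose, 0 fell and 16 did not pass, where 0.304% of all tested probe sets rose. Mpeg1, a pore-forming protein of macrophages, had 361.4 and 377.9 in null liver and 150 and 134.3 in control liver (1.38 ± 0.14, log2, SE; adjusted p = 0.021). Mmp12, an elastase made by macrophages, gave 55.7 and 96.9 in null liver and 5.7 and 2.5 in control liver. Both control signals lay under the floor, so the null level was at least 10.3-fold higher (adjusted p = 0.0377). The floor left the control values no spread, and only the null arrays carried this probe set over the filter. Nothing is therefore read from its p or its call. Another tested probe set of Mmp12 is not described here. The macrophage list summed to 4154 and 4625 in null liver and to 3462 and 3409 in control liver. Its median log2 difference was 0.29, or 0.46 without null replicate 7, with 15 positive and 3 negative values. At an unadjusted p under 0.05, 6 were higher and 0 lower, with Mmp12 among the 6. Over all 7241 probe sets 446 were higher and 468 lower. Of the 18, 13 had both null signals above both control signals, as had 20.4% of all tested probe sets. Its brightest gene, the complement chain C1qc, was at 0.28 ± 0.11 (adjusted p = 0.344). Next were Ctss at 0.36 ± 0.11, C1qa at 0.26 ± 0.11 and the Kupffer cell lectin Clec4f, which did not differ beyond its error (-0.01 ± 0.11). With 1 array left out the adjusted p lay between 0.0700 and 0.118 for Mpeg1 and between 0.0819 and 0.266 for Mmp12, so neither call was kept. Of 14 stellate cell and fibroblast markers on the array 13 were tested and 0 passed in limma, with 5 higher and 0 lower at an unadjusted p under 0.05, where 446 of 7241 probe sets were higher and 468 lower. Their sum was 2322 and 2713 in null liver and 1859 and 1982 in control liver, and their median log2 difference was 0.38, or 0.44 without null replicate 7. The brightest, the proteoglycans Dcn and Bgn, were at 0.39 ± 0.10 (adjusted p = 0.204) and 0.25 ± 0.12 (adjusted p = 0.452). The probe sets of the fibrillar collagen genes differed from each other. Col1a1 and Col1a2 each have another tested probe set that is not described here. A difference between genes thus cannot be told from one between probe sets. Col1a2 was at 0.12 ± 0.25, and the dimmer Col1a1 and Col3a1 were at 1.81 ± 0.36 (adjusted p = 0.101) and 1.31 ± 0.34 (adjusted p = 0.193). Over the tested list 11 values were positive and 2 negative.

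Bile duct markers were mostly too dim to use. Of 13 listed 8 were on the array, 2 were tested and 0 passed, with 0 at an unadjusted p under 0.05 in limma. Epcam was under the floor on every array, and the list summed to 194 and 251 in null liver and to 204 and 234 in control liver, so the groups overlapped. The 13 tested hepatocyte markers summed to 52673 and 49075 in null liver and to 55263 and 54865 in control liver, with 0 calls in limma, 5 lower at an unadjusted p under 0.05 (468 of 7241 over all probe sets) and a median log2 difference of -0.15, or -0.21 without null replicate 7. Neutrophil markers summed to 198 and 295 in null liver and to 191 and 205 in control liver, endothelial markers to 1194 and 1139 in null liver and to 994 and 1019 in control liver, and mesothelial markers to 55.0 and 86.0 in null liver and to 35.2 and 59.6 in control liver, with Msln under the floor throughout. The B and plasma cell list summed to 232 and 288 in null liver and to 238 and 227 in control liver. The T and NK cell list summed to 119.5 and 90.7 in null liver and to 55.1 and 77.6 in control liver. Of its 8 genes on the array only 1, Cd4, was tested. The others were too dim, with Cd3d under the floor on every array, so little can be read from that sum. In these lists 0 genes passed in limma. Erythroid markers summed to 6151 and 5865 in null liver and 7658 and 7291 in control liver, with 0 of 3 passing and 2 lower at an unadjusted p under 0.05. The part of macrophages, stellate cells or other cells in the differences of the galectin, annexin, S100 and keratin genes was not tested.

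**Figure D5:**
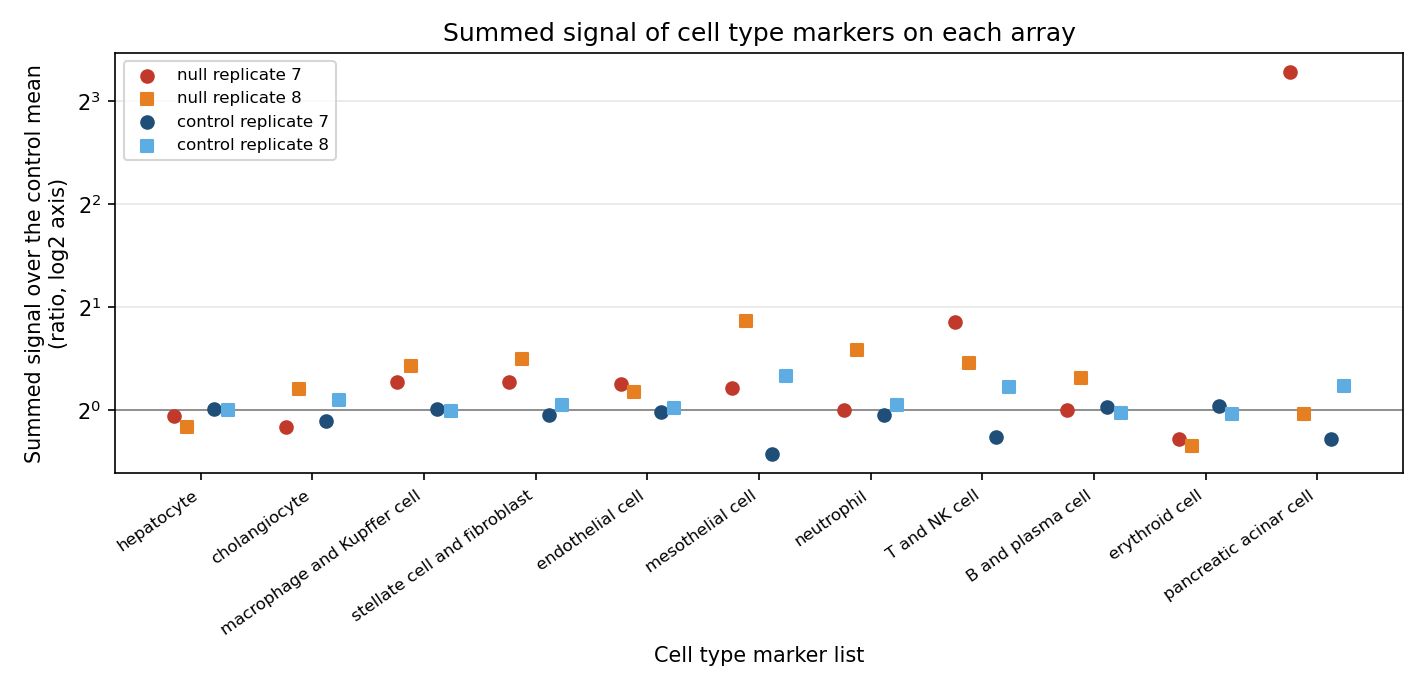
Summed signal of each cell type marker list on each array, divided by the mean of the 2 control arrays (ratio on a log2 axis), with null arrays in red and orange and control arrays in blue. The macrophage, stellate cell, endothelial and T and NK cell lists are higher on both null arrays, but only 1 of 8 T and NK cell genes was bright enough to test. The pancreatic list stands out on null replicate 7 only, at 3028 against 303 on null replicate 8.

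The genes most like the set in their values over the 4 arrays were sought among 5501 other tested genes, by the root mean square distance (log2) from the mean profile of the 10. The nearest was Lyz2, the lysozyme of macrophages, at a distance of 0.05, with 195.7 and 273.1 in null liver and 97.2 and 119.3 in control liver. Next came Idh2, a mitochondrial dehydrogenase (0.05), the transcription factor Klf6 (0.06), Lilr4b, a receptor of myeloid cells (0.08), and Col6a3, a collagen chain (0.08). Gng10, Pla2g12a, Acp2, Rtn4 and Oat followed at 0.09 to 0.10. The log2 difference was 1.10 ± 0.21 (SE) for Lyz2 and 0.93 ± 0.12 (SE) for Oat, ornithine aminotransferase. The likeness chose these genes, so no test is given. With 4 arrays many genes lie near any profile. Within the set Lgals3 (0.11) and Krt8 (0.14) lay nearest to the mean profile, and Vim (0.61) and Lgals1 (0.52) farthest. Lgals1 stood apart by the size of its genotype step. The signal of Vim was too dim for a step to be read, and its replicate 8 arrays lay above its replicate 7 arrays.

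The members lie on chromosomes 2, 3, 9, 14, 15 and 19. None of the nearest protein-coding neighbours outside the set that were tested (Eif4b, Aldh1a1 and Dlgap5) passed in limma, though Aldh1a1 and Eif4b had an unadjusted p under 0.05. Eif4b, a translation factor next to Krt18, had 170.1 and 198.6 in null liver and 240.0 and 239.1 in control liver (-0.38 ± 0.14, log2, SE; adjusted p = 0.346). Aldh1a1, a retinal dehydrogenase next to Anxa1, was at 0.42 ± 0.08 (adjusted p = 0.0997), and Dlgap5, next to Lgals3, at -0.13 ± 0.42. S100a5, next to S100a6, was too dim to test, at 12 and 7.5 in null liver and 12 and 12.9 in control liver.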

How the data were processed

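Liver RNA was measured on 4 Affymetrix MG_U74Av2 arrays, 2 per genotype. Per the labels, the authors used GCOS to turn probe pairs into 1 deposited intensity per probe set (linear units), after bringing the arrays to a common overall fluorescence. Software version, scaling target and detection calls: not given in the sources used here.

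A floor of 7.1 (25th percentile of the signals of all arrays) was set on the signals, which were then put on the log2 scale without further normalization. Of 12422 probe sets that are not controls, 7241 with a mean above 16.8 (the 40th percentile) entered a linear model (limma 3.58.1, R 4.3.3) with genotype as the only term, an intensity trend in the variance, and Benjamini-Hochberg adjustment over all of them. The threshold was an adjusted p of 0.05. The steps were tested on simulated data. Names came from the platform annotation, with symbols brought up to GRCm38.p6 by gene ID (10833 probe sets with 1 symbol, 396 with several, 1193 unnamed here). Where several probe sets of a gene were tested, the brightest stands for it. With 2 arrays per genotype the smallest two-sided exact permutation p is 0.333, and no such test is given. Replicate 7 minus 8 differences of the genotypes were uncorrelated over tested probe sets (r = -0.03), and no label says that the numbers mark a shared batch, so they were not used as pairs.

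The genes described, the lists beside them and the tests were chosen with earlier results of these data known. Named genes are all 10 members, up to 6 of smallest p in each list, markers that passed or are among the 4 brightest of their cell type, the 10 genes of most similar profile and the members' chromosomal neighbours. Col1a1 and Col3a1 were added beside Col1a2 as fibrillar collagen genes of the same list. Alternatives changed the floor, the filter, the scaling, the variance model, the choice of probe set, the arrays and the use of replicate numbers.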

Additional observations from a re-analysis of the deposited data

How the results depend on the processing

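The log2 differences of the members kept their sign under each alternative except for Vim, which ran from -0.48 to 0.67 with arrays left out. The calls were less stable. In limma 0 probe sets were higher, 0 were lower and 0 members were called with the floor at the 50th percentile, without the filter on dim probe sets, or without the intensity trend, where 459, 566 and 407 probe sets were higher and 496, 642 and 340 lower at an unadjusted p under 0.05. With any 1 array removed the higher probe sets numbered 10 to 13 and the lower ones 0 to 4, against 22 and 6 with all arrays, and 0 to 2 members were called. A filter at the 60th percentile gave 15 lower probe sets and quantile normalization 12, beside 29 and 30 higher. With the replicate block 37 probe sets were higher and 15 lower, the same number of members (4) was called, and Ly6d passed. The causes were not tested. Among named relatives without a call, the sign turned with arrays left out for Lgals9 (-0.13 to 0.018), Lgals3bp (-0.11 to 0.31), Anxa6 (-0.068 to 0.42), Anxa7 (-0.22 to 0.33), Anxa3 (-0.64 to 0.78), S100a14 (-0.38 to 0.24), Krt17 (-0.062 to 2.06), Lmna (-0.0027 to 0.46), Des (-0.18 to 0.93), Krt6b (-0.83 to 0.25) and Plec (-0.77 to 0.052). Anxa3 was also at -0.14 with the floor at the 50th percentile and at -0.0015 after quantile normalization. Signals of Vim, Krt7, Krt19 and the second probe sets of Krt18 and S100a10 lie near the floor, where a difference cannot be read, and 2 arrays per genotype limit the precision of the rest.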
